A study of Rattus norvegicus with 8 samples.

Results

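The p53 target genes described here are 34 genes chosen by symbol, as genes that the transcription factor p53 is known to switch on. Of these, 33 have a row in the deposited table of 32623 rat genes, 1 row each, and all 33 passed the filter on low counts. Eda2r passed it through the MCT libraries alone (counts of 0 to 8 in control and 19 to 61 in MCT). Bbc3, which encodes the death protein PUMA, was not analysed here. Rat lung (Rattus norvegicus) was profiled by sequencing of poly(A) RNA in 4 libraries from animals given monocrotaline (MCT), a plant alkaloid used to model pulmonary hypertension, and 4 libraries from a control group. The labels name the tissue and the treatment for both groups, and give no strain, sex, age, dose, vehicle or interval after treatment. Whether each library is its own animal is left unsaid, so every p-value speaks only of the spread among these libraries, and that spread may be partly technical. In whole lung, more cells of a type and more RNA per cell cannot be told apart.

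p53 is held at a low level by Mdm2, which marks it for breakdown. When DNA is damaged, checkpoint kinases release p53 from Mdm2, and p53 then raises genes that stop the cell cycle, start cell death, repair DNA or adjust metabolism, along with Mdm2 itself and other genes that shut the response off again. Monocrotaline is turned in the liver into a reactive pyrrole that binds and crosslinks DNA and protein, and the vessels of the lung are an early site of injury.

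By the spacing of the deposited counts, control libraries held 10.6 to 14.8 M read pairs each, and MCT libraries held 11.1 to 18.2 M. All 10 lung markers examined, surfactant and alveolar genes among them, were present, with a summed level of 43600 to 52500 FPKM in control and 32100 to 57600 FPKM in MCT. FPKM is the number of fragments scaled to transcript length and depth, so that levels of different genes can be compared. Most of the lung sum was Sftpc and the airway gene Scgb1a1 (means 21500 and 14100 FPKM in control, 15200 and 16800 in MCT). So that sum says little of the other lung markers. Sftpc was called lower (log2 fold change -0.51) and Lamp3 higher (0.64), and the other lung markers were not called. Control 1 and MCT 1 stood apart from the other libraries on the second principal component of all genes (24.8 and 77.2, against -36.9 to -4.46). Several cell type markers differed between the groups. Of the markers tested, 11 of 12 for dividing cells were higher in MCT (summed level 24.8 to 56.6 FPKM in control, 113 to 170 in MCT). Control 1 and MCT 1 had the highest of these sums. Aurkb, the dividing-cell marker not called, made up 31.5 FPKM of the sum in control 1 and 73.8 in MCT 1. For macrophages 7 of 11 were higher (12500 to 17100 and 10100 to 18600 FPKM), for mast cells 7 of 8 with 1 lower (65.6 to 66.8 and 246 to 1100 FPKM), and for fibroblasts 4 of 7 (629 to 782 and 1120 to 1860 FPKM). For endothelium 4 of 7 were lower (883 to 1020 and 488 to 597 FPKM). Most of each macrophage sum was Lyz2 (mean 14600 FPKM in control and 13600 in MCT), which was not called, so that sum says little of the other macrophage markers. Most of the mast cell sum in control was Kit (mean 52.2 FPKM in control and 26.9 in MCT), the marker that was lower. Of the 7 heart muscle markers tested none was called, and MCT 1 had the highest sum (165 FPKM, the other libraries 27.4 to 69.9). No list had a member at 0 in every library, and the part of these cells in the results below was not tested.

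Sequence upstream of the members was read from RefSeq, build GRCr8, which had an entry for 28 of the 34. The windows run from 250 bases before to 50 bases after each gene's start, and they were searched for the 10-base unit of the p53 response element by its published consensus, which reads the same on both strands. The unit was present in 7 of 28 members (25.0%) and in 2165 of 27457 windows of all genes (7.89%). No member's window held a pair of units up to 13 bases apart, a layout found in 17 windows of all genes (0.0619%). Among the 12 members with a window whose transcripts were higher in MCT, 4 held the unit, and among the 14 not called 3 did. These 4 are printed because they carry the motif and rose in the same comparison. Each is given from 250 bases before the start to the base before it, 5′ to 3′ on the gene's strand, with the motif in capitals.

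Cdkn1a, chr20:7150682-7150931, plus strand: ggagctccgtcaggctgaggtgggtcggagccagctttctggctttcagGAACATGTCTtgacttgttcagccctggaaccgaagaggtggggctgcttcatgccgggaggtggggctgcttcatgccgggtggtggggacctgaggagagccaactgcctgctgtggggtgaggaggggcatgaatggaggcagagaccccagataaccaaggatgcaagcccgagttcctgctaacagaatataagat
Ccng1, chr10:25684877-25685126, minus strand: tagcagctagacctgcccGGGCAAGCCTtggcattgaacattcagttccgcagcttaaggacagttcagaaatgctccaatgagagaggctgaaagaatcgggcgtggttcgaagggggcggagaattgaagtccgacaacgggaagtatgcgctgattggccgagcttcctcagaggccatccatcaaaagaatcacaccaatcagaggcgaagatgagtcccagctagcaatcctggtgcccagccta
Aen, chr1:142224283-142224532, plus strand: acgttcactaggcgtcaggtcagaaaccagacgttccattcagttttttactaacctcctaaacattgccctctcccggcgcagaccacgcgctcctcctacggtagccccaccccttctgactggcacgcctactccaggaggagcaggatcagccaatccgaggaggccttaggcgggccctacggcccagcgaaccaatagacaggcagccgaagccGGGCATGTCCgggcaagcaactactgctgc
Ei24, chr8:44699372-44699621, minus strand: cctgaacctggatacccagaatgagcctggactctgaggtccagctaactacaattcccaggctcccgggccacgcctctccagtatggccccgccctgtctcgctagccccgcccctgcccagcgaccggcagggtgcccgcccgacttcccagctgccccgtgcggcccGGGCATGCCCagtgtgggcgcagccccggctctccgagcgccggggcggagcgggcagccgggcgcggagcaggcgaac

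The motif begins 201 bases before the start in Cdkn1a, 232 in Ccng1, 30 in Aen and 79 in Ei24. The other members that held it were Gadd45a, Sesn1 and Pidd1, none of which was called. A match is a description of the letters in this window, and a window without one says nothing of sites elsewhere in the gene.

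In MCT lungs, 14 of the 33 p53 target genes were higher and 2 were lower, while 17 were not called. The genes that rose were 2 of 3 feedback genes, 8 of 13 death genes, 2 of 5 arrest genes, 1 of 6 metabolic genes and 1 of 6 repair genes, and the difference between the roles was not tested. Lower members were Ppm1d, a feedback phosphatase, and Xpc, a damage sensor of nucleotide excision repair. Called means an adjusted p under 0.05 in edgeR's quasi-likelihood test over all 16715 genes tested, of which 11% were higher and 9.45% lower. Of the members, 7 were called with a rise of at least 1 on the log2 scale, against 3.7% of all genes tested. The FPKM values of the groups did not overlap for 15 members with MCT higher and 3 with MCT lower, against 13.3% and 11.7% of all genes tested. Eda2r, which passed the filter through MCT alone, is counted among the 14, the 7 and the 15. The median log2 fold change was 0.38 over the members and 0.03 over all genes tested, and by role it was 0.55 for feedback, 0.58 for death, 0.13 for arrest, 0.32 for metabolism and -0.35 for repair. The member median was 0.25 without MCT 1 and 0.26 with control 1 and MCT 1 both left out. In the latter fit 9 members were higher and 1 lower, against 10.8% of all genes higher.

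**Figure D1:**
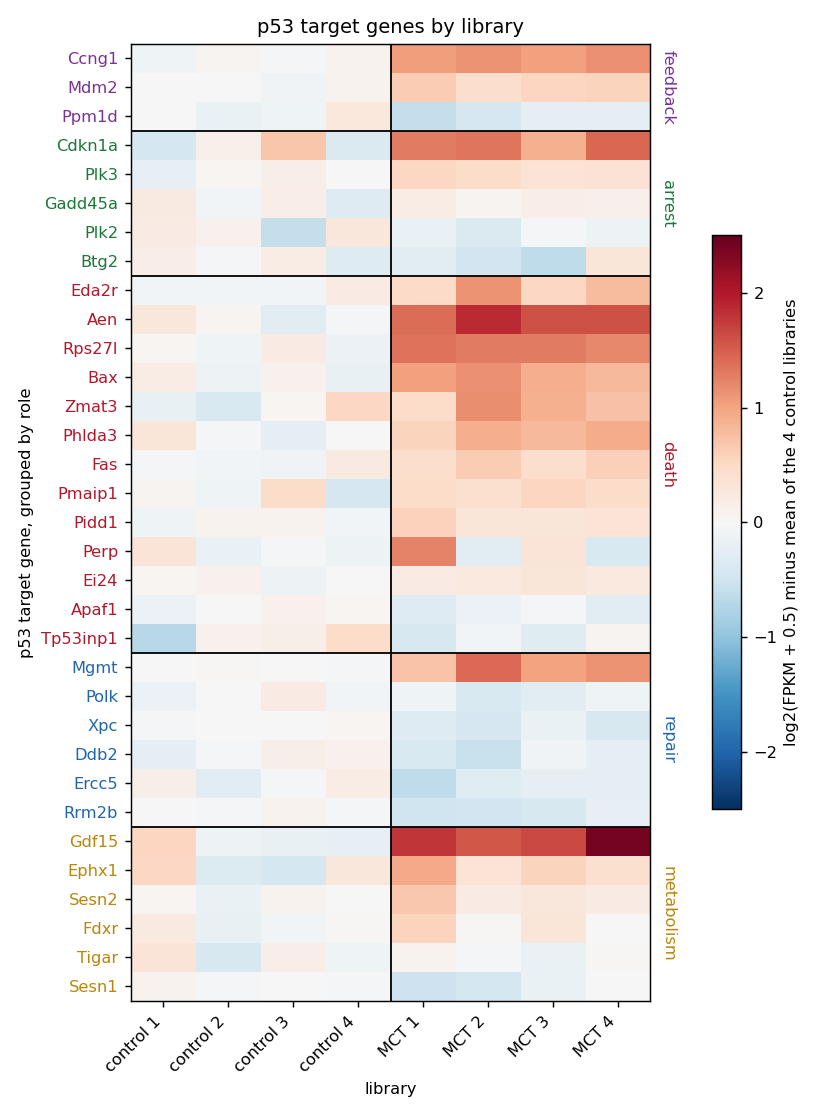
Level of 33 p53 target genes (rows, grouped by role) in each of the 8 libraries (columns), as log2(FPKM + 0.5) minus the mean of the 4 control libraries, with red above and blue below that mean. In MCT the repair genes other than Mgmt lay mostly at or below that mean. Counted instead against the control mean of FPKM without logarithms, 20 to 22 of the 33 members lay above it in each MCT library. In each control library 11 to 18 did, and the same counts over all genes were not taken.

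The median of the members, as a log2 ratio to the control mean of FPKM + 0.5, was 0.44 in MCT 1, 0.24 in MCT 2, 0.30 in MCT 3 and 0.29 in MCT 4, and -0.06 to 0.03 in the control libraries. MCT 1 had the highest median. Their summed level was 756 to 878 FPKM in control and 1090 to 1250 FPKM in MCT. Across 19 alternative fits, 9 of the members that were higher kept their call in every one: Mdm2, Ccng1, Bax, Aen, Fas, Phlda3, Rps27l, Mgmt and Gdf15. Xpc kept its call as lower in all 19.

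**Figure D2:**
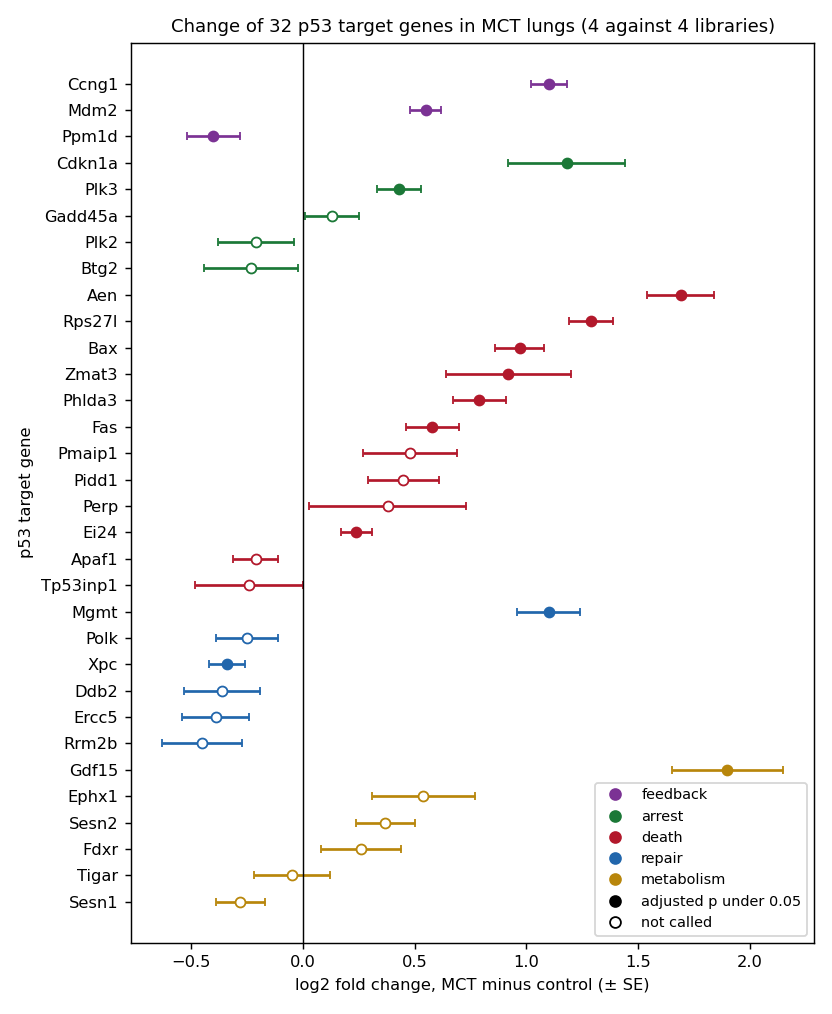
Log2 fold change (MCT minus control) of 32 p53 target genes with its standard error, 4 against 4 libraries, coloured by role, where filled points were called at an adjusted p under 0.05 and open points were not. Gdf15 (1.9), Aen (1.69) and Rps27l (1.29) lie farthest to the right, and Eda2r (3.96, SE 1.21) is left out for scale.

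Among the feedback genes, those that hold p53 down did not move together. Ccng1, which encodes cyclin G1 and lies on chromosome 10 from 25903911 to 25910325 (Rnor_6.0), stood at 24.5, 27.8, 25.5 and 27.9 FPKM in control libraries 1 to 4 and at 55.2, 58.1, 54.2 and 58.8 FPKM in MCT libraries 1 to 4. The 2 groups lay far apart and each was tight. Its log2 fold change was 1.10 (SE 0.08, edgeR adjusted p 0.000129), from 26.4 ± 1.72 to 56.6 ± 2.21 FPKM (SD, n = 4).

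Mdm2, the ubiquitin ligase that limits p53 (chromosome 7, 60719066 to 60743328), stood at 16.9, 17, 16.0 and 18.2 FPKM in control and at 26.6, 23.2, 24.9 and 25.3 FPKM in MCT. Every MCT library was above every control library, and the rise was modest, 0.55 (SE 0.07, edgeR adjusted p 0.00142). Ppm1d, the phosphatase WIP1 that removes activating phosphates from p53 and the checkpoint kinases, went the other way. It stood at 9.50, 8.48, 8.75 and 11.6 FPKM in control and at 6.13, 7.01, 7.90 and 8.02 FPKM in MCT. The groups were separated by a narrow gap, and the fall of 0.40 (SE 0.12, edgeR adjusted p 0.0475) lay close to the threshold. It was called in 4 of 19 alternative fits, and leaving out any 1 library ended the call (log2 fold change -0.45 to -0.31 over all 19).

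**Figure D3:**
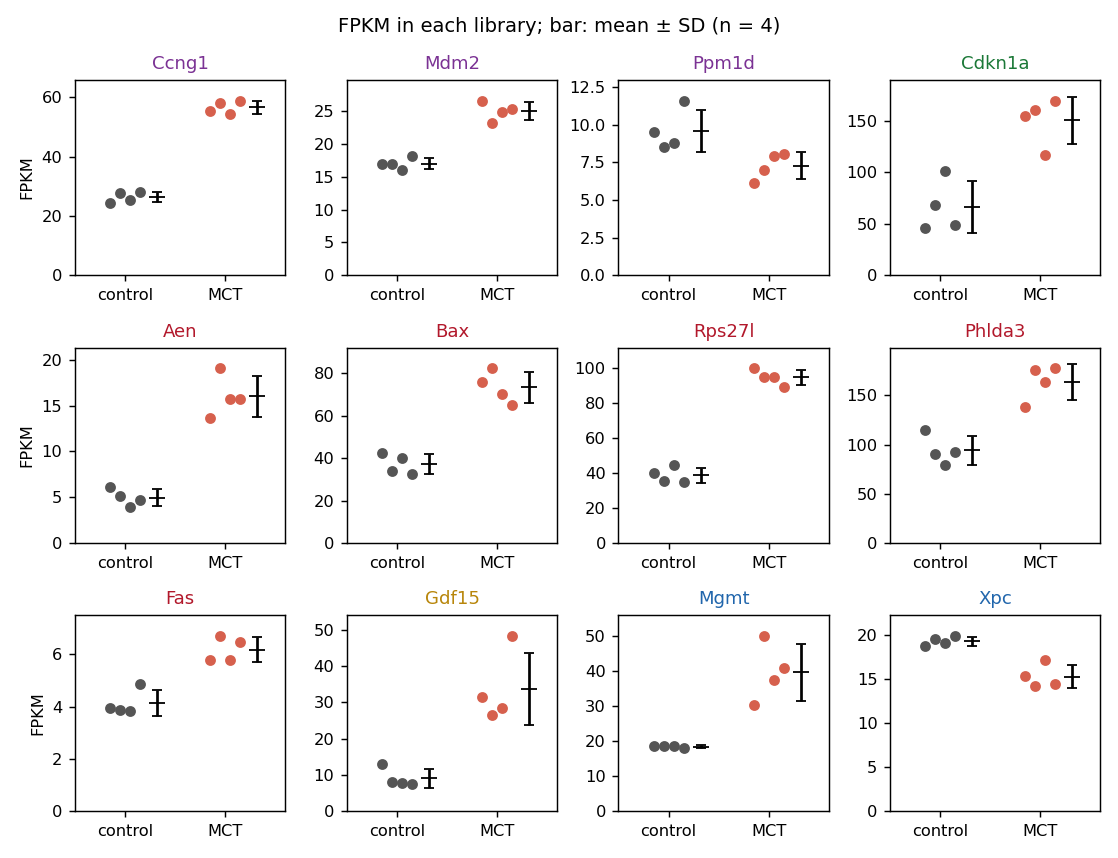
FPKM (vertical axis, from 0) of 12 p53 target genes in each library, control in grey and MCT in red, with the mean ± SD of 4 libraries as a bar beside each group. The panels were picked from the called members, and in all of those picked the groups do not overlap, so that trait follows from the choice. The called members not shown are Plk3, Ei24, Eda2r and Zmat3, and the groups overlap in Zmat3. Ppm1d and Xpc are the panels with MCT below control.

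Of the arrest genes, Cdkn1a and Plk3 rose and the others were not called. Cdkn1a (chromosome 20, 6351458 to 6358864) encodes p21, the inhibitor of cyclin-dependent kinases through which p53 stops the cycle before DNA synthesis. It stood at 46.0, 68.0, 101 and 48.7 FPKM in control and at 155, 160, 117 and 169 FPKM in MCT. Control 3 was well above the other control libraries and MCT 3 was the lowest of its group, so the gap between the groups was small beside their spread. The rise was 1.18 (SE 0.26, edgeR adjusted p 0.0133), from 65.9 ± 25.3 to 150 ± 23 FPKM. With control 1 and MCT 1 both left out it was not called (adjusted p 0.0533).

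Plk3, a stress-responsive kinase, stood at 9.76, 11.8, 12.5 and 11.4 FPKM in control and at 16.3, 15.8, 14.4 and 14.6 FPKM in MCT. The groups did not overlap, and it rose by 0.43 (SE 0.10, edgeR adjusted p 0.0194). The call was lost in 3 of 19 alternative fits: without MCT 2, with the replicate block, and with control 1 and MCT 1 both left out. Gadd45a, which binds PCNA and checkpoint kinases, was at 57.0 ± 9.63 FPKM in control and 62.4 ± 2.20 in MCT (0.13, SE 0.12). Btg2, an antiproliferative partner of the mRNA deadenylase and at 164 ± 26.1 FPKM the member with the highest level in control, was at 139 ± 42.5 FPKM in MCT, with MCT 4 at 200.1 FPKM above every control library and the other MCT libraries at 104 to 136. Plk2, a kinase of the same family as Plk3, was at 25.5 ± 6.41 and 22.1 ± 2.07 FPKM. Its control 3 stood at 16.2 FPKM against 26.8 to 30.5 in the other control libraries, and without control 3 it was called lower.

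The death genes made up 8 of the 14 rises. Aen, an exonuclease that p53 induces during apoptosis (chromosome 1, 140584380 to 140593745), stood at 6.09, 5.13, 3.92 and 4.70 FPKM in control and at 13.7, 19.1, 15.7 and 15.7 FPKM in MCT. The lowest MCT library was more than double the highest control library. The rise was 1.69 (SE 0.15, edgeR adjusted p 0.000331), from 4.96 ± 0.905 to 16.0 ± 2.24 FPKM.

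Rps27l, a ribosomal protein that stabilises p53, stood at 39.8, 35.6, 44.3 and 34.9 FPKM in control and at 99.5, 94.9, 94.9 and 88.7 FPKM in MCT. Both groups were narrow and far apart, with a rise of 1.29 (SE 0.10, edgeR adjusted p 0.000192). Its close paralog Rps27 was at 866 ± 72.2 FPKM in control and 926 ± 113 in MCT and was not called (0.09, SE 0.10). Rps27 was looked up after the values were seen, and the sources used here do not give how reads shared by the 2 genes were counted.

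Bax, which opens the outer mitochondrial membrane (chromosome 1, 101451802 to 101457207), stood at 42.3, 34, 40.1 and 32.6 FPKM in control and at 75.6, 82.1, 70.1 and 65.1 FPKM in MCT. No library of one group came near the other, and the rise was 0.97 (SE 0.11, edgeR adjusted p 0.000766). Phlda3, which competes with Akt for membrane lipids, stood at 115, 90.0, 79.6 and 92.3 FPKM in control and at 138, 176, 163 and 177 FPKM in MCT, a rise of 0.79 (SE 0.12). MCT 1 was the lowest of its group and control 1 the highest of its own, and still the 2 did not meet. Fas, the death receptor, stood at 3.96, 3.88, 3.81 and 4.86 FPKM in control and at 5.77, 6.69, 5.78 and 6.49 FPKM in MCT, a rise of 0.58 (SE 0.12, edgeR adjusted p 0.0103). Control 4 was the highest control library and still lay below all of MCT.

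Zmat3, an RNA-binding zinc finger protein, stood at 1.88, 1.59, 2.30 and 3.38 FPKM in control and at 3.21, 5.57, 4.5 and 4.01 FPKM in MCT. It was called with a rise of 0.92 (SE 0.28, edgeR adjusted p 0.0434), although MCT 1 lay below control 4. Ei24, a membrane protein of the endoplasmic reticulum, stood at 47.2, 49.3, 41.9 and 45.3 FPKM in control and at 52.7, 54.2, 56.6 and 54.2 FPKM in MCT, without overlap. Its rise of 0.24 (SE 0.07, edgeR adjusted p 0.0457) was the smallest among the called members. Eda2r, a receptor of the tumour necrosis factor family, was listed at 0 in control 1 to 3 and at 0.10 FPKM in control 4, and at 0.23, 0.64, 0.25 and 0.40 FPKM in MCT. Its counts stood for about 2 read pairs in control and 42 in MCT. The depth-scaled ratio was 19.2, with a 95% exact interval of 4.99 to 163 that covers counting error only. The fitted log2 fold change (3.96, and 0.42 to 8.23 over the alternative fits) depends on how values near 0 are handled and is no bound. These calls were the least stable among the rises: Zmat3 was called in 10 of 19 alternative fits, Ei24 in 5 of 19 and Eda2r in 7 of 17. When each of the 8 libraries was left out in turn, the call of Zmat3 held only without control 4 or MCT 1, that of Ei24 only without control 2 and that of Eda2r only without control 4.

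The remaining death genes were not called. Pmaip1, which encodes the BH3-only protein NOXA, stood at 2.97, 2.57, 4.08 and 1.99 FPKM in control and at 4.08, 3.87, 4.29 and 4.07 FPKM in MCT. Control 3 lay within the MCT range, and the log2 fold change was 0.48 (SE 0.21, edgeR adjusted p 0.137). Without control 3 the gene was called. Pidd1, a scaffold that activates caspase-2, was at 2.08 ± 0.188 FPKM in control and 2.86 ± 0.307 in MCT, without overlap (0.45, SE 0.16, adjusted p 0.0743). Pidd1 was called higher in 4 of 19 alternative fits, the 3 with limma and the 1 with DESeq2. Apaf1, the core of the apoptosome, was at 4.70 ± 0.387 and 4.06 ± 0.404 FPKM, and Tp53inp1, a p53 cofactor also used in autophagy, at 9.91 ± 3.13 and 8.41 ± 1.29 FPKM.

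Perp, a desmosome protein of epithelia, stood at 38.8, 27.5, 29.8 and 28.4 FPKM in control and at 73.2, 25.7, 38.7 and 23.6 FPKM in MCT. Its highest library in each group was number 1, the libraries that stood apart. Without MCT 1 its log2 fold change turned from 0.38 (SE 0.35) to -0.10. The summed level of 9 ciliated cell markers was also highest in control 1 (762 FPKM, the other control libraries at 563 to 674) and MCT 1 (717 FPKM, the others at 349 to 549), and none of the 9 was called. Most of each ciliated sum was Tppp3 (mean 612 FPKM in control and 468 in MCT), so that sum says little of the other ciliated markers. The part of airway tissue in the Perp values was not tested.

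**Figure D4:**
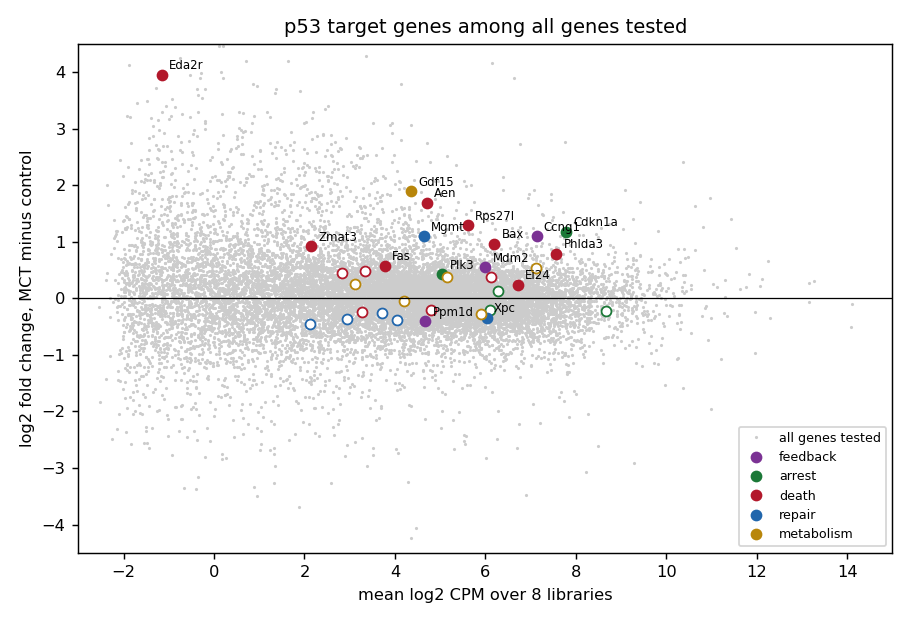
Log2 fold change (MCT minus control) against mean log2 CPM for all 16715 genes tested (grey) and the 33 p53 target genes (coloured by role, filled where called); 42 genes fall outside the axes. Filled members lie mostly above 0, and Eda2r lies at the low end of expression.

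Of the 6 repair genes, Mgmt was called higher and Xpc lower, and the other 4 were not called. The log2 fold change was positive for 1 of 6 repair genes, for 11 of 13 death genes and for 8757 of all 16715 genes tested, and the difference between the roles was not tested. Xpc (chromosome 4, 123134457 to 123161985), which finds distorted DNA for nucleotide excision repair, stood at 18.7, 19.5, 19.1 and 19.8 FPKM in control and at 15.3, 14.2, 17.1 and 14.4 FPKM in MCT. The control libraries were nearly level and all MCT libraries lay beneath them, a fall of 0.34 (SE 0.08, edgeR adjusted p 0.0136). Its partner in damage recognition, Ddb2, was at 4.5 ± 0.592 FPKM in control and 3.51 ± 0.564 in MCT (-0.36, SE 0.17), and Ercc5, the nuclease that cuts on the 3′ side of the lesion, at 5.01 ± 0.798 and 3.82 ± 0.558 FPKM (-0.39, SE 0.15). Neither was called.

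Rrm2b, the p53-inducible subunit of ribonucleotide reductase, stood at 3.85 to 4.25 FPKM in control and 2.67 to 3.39 FPKM in MCT without overlap, and was not called (-0.45, SE 0.18, adjusted p 0.102). The same 4 alternative fits, with limma and DESeq2, called it lower. Polk, a translesion polymerase, was at 3.60 ± 0.423 and 3.02 ± 0.325 FPKM. Mgmt, which removes alkyl groups from guanine in a single step, was the exception (chromosome 1, 209237233 to 209464190). It stood at 18.5, 18.7, 18.7 and 17.9 FPKM in control and at 30.4, 50, 37.5 and 40.9 FPKM in MCT. The control libraries agreed closely while the MCT libraries were spread, and the rise was 1.10 (SE 0.14, edgeR adjusted p 0.0013), from 18.4 ± 0.376 to 39.7 ± 8.15 FPKM.

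Of the metabolic and secreted targets, only Gdf15 was called among the 6 tested. Gdf15, a stress hormone of the transforming growth factor beta family (chromosome 16, 20555395 to 20557978), stood at 12.9, 7.97, 7.64 and 7.50 FPKM in control and at 31.5, 26.7, 28.6 and 48.3 FPKM in MCT. Control 1 and MCT 4 were high for their groups, and the groups did not meet. With 1.9 (SE 0.25, edgeR adjusted p 0.00133) its rise was the largest of the members other than Eda2r, from 9.01 ± 2.62 to 33.8 ± 9.90 FPKM.

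The sestrins, which restrain mTORC1, went in different directions and neither was called: Sesn2 was at 7.90 ± 0.643 FPKM in control and 10.2 ± 1.79 in MCT (0.37, SE 0.13, adjusted p 0.0752), and Sesn1 at 18.3 ± 0.798 and 15.1 ± 2.51 FPKM (-0.28, SE 0.11, adjusted p 0.104). Sesn1 was called lower without MCT 4. The difference between the 2 genes was not tested. Ephx1, an epoxide hydrolase of xenobiotic metabolism, was at 56.8 ± 18.3 FPKM in control, where control 1 at 78.0 FPKM was above 2 of the MCT libraries, and at 82.3 ± 16.7 FPKM in MCT (0.54, SE 0.23). Without control 1 it was called higher. Fdxr, the mitochondrial reductase that feeds electrons to steroid and heme pathways, was at 4.08 ± 0.541 and 4.89 ± 1 FPKM. Tigar, which diverts glucose from glycolysis, was at 6.62 ± 1.53 and 6.4 ± 0.50 FPKM, with a log2 fold change of -0.05 (SE 0.17).

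Of 16 tested genes that signal to p53 or act on it, 2 were higher and 2 lower. These shares, 12.5% each, lay near the 11% higher and 9.45% lower among all genes tested. Hipk2, a kinase that phosphorylates p53, went from 8.40 ± 2.61 to 3.27 ± 0.306 FPKM (-1.36, SE 0.20, edgeR adjusted p 0.00246), and the acetyltransferase Ep300 from 5.87 ± 1.27 to 2.35 ± 0.885 FPKM (-1.33, SE 0.29). The checkpoint kinase Chek2 stood at 2.05 to 2.33 FPKM in control and at 2.08, 3.85, 4.41 and 4.37 FPKM in MCT, so MCT 1 did not share its rise of 0.76 (SE 0.24), which had an edgeR adjusted p just under 0.05. Cdkn2a, whose products include an inhibitor of Mdm2, was at 0 to 0.15 FPKM in control and 0.58 to 0.94 in MCT. Its counts stood for about 4 and 37 read pairs, a depth-scaled ratio of 8.44. The 95% exact interval of 3.03 to 32.6 covers counting error only. The fitted rise of 3.16 (SE 0.98, edgeR adjusted p 0.0487) rests on values near 0 and lay close to the threshold.

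Outside the members, 11 genes of the mitochondrial and caspase machinery of cell death were tested, of which 2 were higher and 2 lower. That was 18.2% each, against 11% higher and 9.45% lower among all genes tested. Cycs, cytochrome c, went from 46.7 ± 2.77 to 70.9 ± 3.40 FPKM (0.60, SE 0.08). Bcl2l11, the BH3-only death protein BIM and not counted here as a p53 target, fell by 1.09 (SE 0.13) from 10 ± 0.85 to 4.70 ± 0.733 FPKM. The survival gene Bcl2l1 fell by 0.56 (SE 0.17) from 83.2 ± 14.6 to 56.3 ± 9.73 FPKM. Of 22 further genes described as p53 targets elsewhere, 5 were higher and 5 lower, with a median log2 fold change of 0.10. The 4 with the smallest p were Ckap2, a spindle protein (3.80, SE 0.27), the cytokine gene Lif (2.23, SE 0.34), the membrane protein gene Tp53i11 (-1.01, SE 0.10) and the ubiquitin ligase gene Trim8 (-0.66, SE 0.08). So 14 of 33 members and 5 of 22 further targets were higher, against 11% of all genes tested. Lower were 2 of 33 members and 5 of 22 further targets, against 9.45% of all genes tested. The difference between the lists was not tested.

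**Figure D5:**
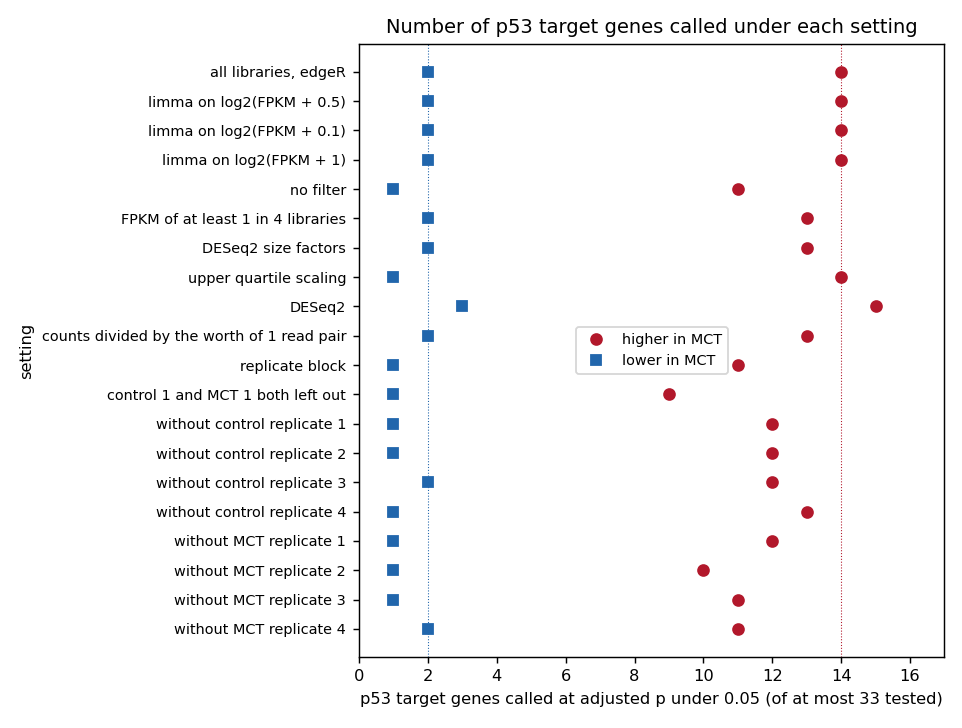
Number of p53 target genes called higher (red circles) and lower (blue squares) in MCT under each fit, listed on the vertical axis, with dotted lines at the values of edgeR on all libraries (14 and 2). The count of higher members ranged from 9, with control 1 and MCT 1 both left out, to 15 with DESeq2.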

How the data were processed

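Whole-lung RNA of 8 libraries (4 MCT, 4 control) was analysed. The labels' protocols state oligo(dT) beads. The submitters' processing notes name cutadapt 1.9, HISAT2 2.0.4, StringTie 1.3.4d, edgeR and the build Rnor_6.0, without settings. The authors deposited 1 table with FPKM and whole-number estimated counts per gene, per the file headers. The low counts pile up at steps of about 3.71 units, taken as 1 read pair, and total 39.8 to 66.6 M units per library. Expected counts deposited by the authors were rounded, which left them as they were.

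Genes were filtered with filterByExpr (minimum count 10), scaled by TMM and tested with edgeR 4.0.16 (quasi-likelihood, robust, R 4.3.3), with Benjamini-Hochberg adjustment over all genes and no replicate block. Alternatives used limma 3.58.1, DESeq2 1.42.0, other filters, scalings and libraries. The edgeR fit used for the calls was first tested on simulated counts with known changes, which lacked the spacing of the deposited counts. The alternative fits were not tested in this way. FPKM values are mean ± SD over 4 libraries. Values in every library are given for called members whose higher group averaged 1 FPKM or more, and for Cdkn1a, Mdm2, Bax, Pmaip1 and Gdf15. Other pathway genes are up to 4 called genes per list by smallest p; some values are not reported here. The members, lists and tests were chosen with earlier results of these data known. Libraries of a group were no duplicates (chi-square per gene at least 14.2). Overlapping annotated genes had a mean count of at most 1. Strand and multi-mapping settings are not given in the sources used here.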

Additional observations from a re-analysis of the deposited data

Results flagged for a closer look

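Among 66 sets of member values (each gene in each group), 5 held a library set apart from its own group, where chance gives about 3.3 sets. The measure is that library's gap to its nearest neighbour, divided by the whole range of the group. It was 0.857 for Fas in control, with control 4 at 4.86 FPKM and the others at 3.81 to 3.96. For Eda2r in control it was 1, since control 4 was at 0.10 FPKM and the others were listed at 0. For Gdf15 in control it was 0.913, with control 1 at 12.9 FPKM and the others at 7.50 to 7.97. In MCT it was 0.831 for Pidd1 (MCT 1 at 3.31 FPKM, the others at 2.66 to 2.77) and 0.848 for Sesn2 (MCT 1 at 12.9 FPKM, the others at 9.12 to 9.69).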

How the results depend on the processing

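Of 625 values of single members under 19 alternative fits, 555 kept their direction and their side of the threshold, 52 lost the call, 13 gained one and 5 changed sign. The changes of sign were those of Perp without MCT 1 (-0.10, up to 0.55 with another library left out) and of Tigar (-0.17 to 0.07 over single libraries left out), at 0.03 with control 1 and MCT 1 both left out, 0.07 without control 1, and 0.01 without control 3 and without MCT 3, and neither gene was called in any fit. With control 1 and MCT 1 both left out, 9 members were higher, and Cdkn1a, Plk3, Eda2r, Ei24 and Zmat3 were not called. Leaving out 1 library gave 10 to 13 higher and 1 to 2 lower. The number lower was 1, Xpc, with no filter, with upper quartile scaling, with the replicate block and with control 1 and MCT 1 both left out, and 3 with DESeq2, which also called Rrm2b. The 3 limma fits gave 14 higher and 2 lower with other members: Pidd1 in place of Ei24 and Rrm2b in place of Ppm1d. With no filter 11 members were higher. With the replicate block 11 were higher: Plk3, Eda2r, Ei24 and Zmat3 were not called and Ephx1 was. Whether the replicate numbers pair the libraries cannot be settled from these few libraries. Deviations of same-numbered libraries, in order of number, correlated at 0.11, 0.0165, -0.0165 and -0.0848. The value for control 1 and MCT 1 was the highest of any control and MCT library. Libraries of the other numbers correlated best with a different number. The cause of these differences was not tested. Depth limits Eda2r, which the fits with FPKM of at least 1 and with counts divided by the worth of 1 read pair did not test.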
